A study of Mus musculus with 9 samples.

Results

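The 5 genes of the Ikaros family, Ikzf1 to Ikzf5, were followed through an ATAC-seq data set of naive CD4+ T cells. ATAC-seq reads open chromatin as the places where a transposase can insert sequencing adapters. The family's regions were the peaks that the authors' table assigns to one of the 5 gene symbols, together with the intergenic peaks within 50 kb of their transcripts. These rules, which used no measured value, gave 112 of 115727 peaks: 51 for Ikzf1, 29 for Ikzf2, 24 for Ikzf3, 7 for Ikzf4 and 1 for Ikzf5. Of the 112 peaks, 70 carried a member's symbol and 42 were intergenic. The member was the nearest listed gene for 23 of these 42. They were 15 of 23 for Ikzf1, 8 of 8 for Ikzf2, 0 of 6 for Ikzf3 and 0 of 5 for Ikzf4.

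All cells were untreated, taken directly from C57BL/6 mice and enriched as naive CD4+ T cells with a commercial kit, and 50000 cells went into each library. Stat6_KO mice carried a knockout of Stat6, the transcription factor that relays the interleukin-4 signal. Il21e_KO mice carried an allele that the labels call both Il21e KO and IL21KO, without saying which DNA is removed. WT mice carried neither. There were 3 libraries per genotype; the labels do not say whether these came from separate animals, so p-values measure only the spread between these libraries.

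Ikaros family proteins bind DNA through zinc fingers near one end and pair with each other through zinc fingers at the other end. They recruit the chromatin remodelling and deacetylase complex NuRD and can both silence and maintain genes. Ikaros (Ikzf1) is needed for lymphocyte development, and Aiolos (Ikzf3) is expressed in maturing B and T cells. Helios (Ikzf2) and Eos (Ikzf4) are best known from regulatory T cells, where Eos works with FOXP3. Pegasus (Ikzf5) is the most diverged member and is expressed broadly outside the lymphoid system.

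Ikzf1 has a pair of annotated start sites, 4252 bases apart, and each lay in an open region of its own. The sequences around them, and around the start of Ikzf5, are shown because both Ikzf1 starts were open although their base composition differs greatly. Each window runs from 250 bases before to 50 bases after the start and was taken from RefSeq, build GRCm38.p6, which is not the mm9 build of the peaks. RefSeq windows were at hand for 2 of the 5 genes. Capitals mark GGGAA, the core of the Ikaros recognition site, or TTCCC, the same letters on the other strand.
Ikzf1 upstream promoter, chr11:11685675-11685974, plus strand: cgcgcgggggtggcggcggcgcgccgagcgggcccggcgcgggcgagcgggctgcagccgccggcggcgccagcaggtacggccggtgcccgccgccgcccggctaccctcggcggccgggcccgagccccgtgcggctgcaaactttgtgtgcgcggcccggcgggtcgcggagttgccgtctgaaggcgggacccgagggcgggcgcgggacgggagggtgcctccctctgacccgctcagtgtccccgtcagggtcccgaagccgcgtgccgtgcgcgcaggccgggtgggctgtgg
Ikzf1 downstream promoter, chr11:11689927-11690226, plus strand: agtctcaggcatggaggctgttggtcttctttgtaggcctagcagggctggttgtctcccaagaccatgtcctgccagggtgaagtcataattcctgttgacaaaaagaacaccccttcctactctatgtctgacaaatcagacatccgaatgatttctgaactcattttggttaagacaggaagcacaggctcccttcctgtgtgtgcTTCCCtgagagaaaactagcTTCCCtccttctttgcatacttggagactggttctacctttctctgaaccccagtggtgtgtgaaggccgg
Ikzf5 promoter, chr7:131410429-131410728, minus strand: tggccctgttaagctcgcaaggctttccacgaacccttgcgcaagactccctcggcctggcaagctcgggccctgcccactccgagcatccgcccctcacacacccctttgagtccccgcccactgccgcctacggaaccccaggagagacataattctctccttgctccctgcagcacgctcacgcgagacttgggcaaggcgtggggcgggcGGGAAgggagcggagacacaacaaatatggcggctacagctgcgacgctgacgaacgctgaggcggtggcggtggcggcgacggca

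The upstream Ikzf1 window was 81.3% G and C with 52 CpG, against a median of 52.7% and 7 CpG over 32851 RefSeq promoters of the same length. The downstream Ikzf1 window was 49% G and C with 2 CpG, and the Ikzf5 window 65.7% with 27 CpG. The downstream Ikzf1 window held GGGAA at 2 places, whose first bases lay 41 and 21 bases before the start, both on the minus strand. The Ikzf5 window held it once, 36 bases before the start, and the upstream Ikzf1 window not at all. GGGAA occurred in 62.7% of all promoters, on either strand. The longer core TGGGAA, which contains it and was found in 25.6% of promoters, was in none of the 3 windows.

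Among the other motifs searched on both strands, CCGCCC, the letters bound by SP and KLF factors, occurred 2 times in the upstream Ikzf1 window and 4 times in the Ikzf5 window (35.7% of all promoters had it). TTCNNNGAA, the spacing preferred by most STAT factors, occurred once in the downstream Ikzf1 window and once in the Ikzf5 window (8.30% of promoters). TTCNNNNGAA, the wider spacing preferred by STAT6 (6.95%), was in none of the 3. Nor were CCGGAAG (ETS, 8.86%), TGTGGT (RUNX, 16.8%) and TGACGTCA (CREB, 1.79%). A match describes letters and not a bound site.

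Signal is given as deposited, in CPM, counts per 1000000 reads that fell into listed peaks. Stat6_KO libraries held 1634889 to 1759775 reads in peaks, Il21e_KO libraries 1049460 to 1802405 and WT libraries 1284426 to 1634247, so that 1 read was worth 0.555 to 0.953 CPM. Among the libraries, Il21e_KO 1 was unlike the others: 27200 peaks held none of its reads, against 3898 to 12916 elsewhere. In promoter (TSS) peaks lay 42.7% of its reads, against 31.6% to 36.4%. WT 1 and WT 2 came next, with 11963 and 12916 peaks without reads and 36.4% and 35.6% of reads in TSS peaks. The remaining libraries had 3898 to 6749 peaks without reads and 31.6% to 33.3% of reads in TSS peaks. Leaving out Il21e_KO 1 does not remove this difference between 2 WT libraries and the Stat6_KO libraries. Its bearing on the comparisons was not tested. Promoter peaks were listed for all 7 T cell markers (Cd3e, Cd3d, Cd3g, Cd4, Tcf7, Lef1, Bcl11b), and for the naive T cell markers Ccr7, Il7r, Satb1 and S1pr1. Of the 5 regulatory T cell markers 4 had one (Foxp3 had none), with summed promoter signal of 78.3 to 86.4 CPM in Stat6_KO, 74.3 to 84.4 in Il21e_KO and 73.2 to 86.3 CPM in WT libraries. All 6 B cell markers had one, and their summed promoter signal was 33.6 to 36.9 CPM in Stat6_KO, 17.2 to 31.5 in Il21e_KO and 21.4 to 45.1 CPM in WT libraries. Of the other lists, promoter peaks were present for 1 of 2 CD8, 3 of 5 myeloid, 1 of 3 NK, 0 of 4 erythroid and 5 of 5 memory and effector T cell markers. The promoter peak of Stat6 itself had 63.0 to 68.5 CPM in Stat6_KO, 62.7 to 71.5 in Il21e_KO and 56.7 to 83.8 CPM in WT libraries. The 2 exon peaks of Stat6 summed to 17.1 to 26.1 CPM in Stat6_KO, 6.67 to 16.4 in Il21e_KO and 12.2 to 23.2 CPM in WT libraries. Accessibility at neither place checked the Stat6_KO label. The promoter peak of Il21 had 1.14 to 1.22 CPM in Stat6_KO, 0 to 1.66 in Il21e_KO and 0 to 0.612 CPM in WT libraries, all within the 3 reads that a count of 0 allows.

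Ikzf1 had the most signal of the family. Its 28 assigned peaks summed to 398 CPM over the 9 libraries, rank 71 among 16126 genes with a peak. Ikzf3 followed with 259 CPM in 18 peaks (rank 220) and Ikzf2 with 123 CPM in 21 peaks (rank 942). Ikzf4 had 54.7 CPM in 2 peaks (rank 3576) and Ikzf5 21.3 CPM in its single peak (rank 10919). These sums grow with the number and length of the peaks. Per kb covered by peaks, Ikzf1 had 22.6, Ikzf3 21.4, Ikzf5 20.7 and Ikzf4 20.3 CPM, and Ikzf2 12.2 CPM.

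Ikzf2 was the member with the lowest signal per covered kb. Its signal per covered kb was 8.79 to 14.2 CPM in the 9 libraries, below every library of Ikzf1 (20.7 to 26.1), Ikzf3 (20.1 to 22.7) and Ikzf4 (16.3 to 24.1), and overlapped that of the single Ikzf5 peak (13.1 to 33.3). Only the promoter among its 29 peaks exceeded 20 CPM, and 19 stayed under 5 CPM. By contrast 9 of the 51 Ikzf1 peaks and 6 of the 24 Ikzf3 peaks exceeded 20 CPM. The Ikzf2 peaks were also the shortest, with a median length of 370 bp. The medians were 485 bp for Ikzf1, 524.5 bp for Ikzf3, 569 bp for Ikzf4 and 1031 bp for Ikzf5. All listed peaks had medians of 433 bp and 8.73 CPM per kb, and TSS peaks of 1064 bp and 21.6 CPM per kb. How far peak length accounts for the lower signal of Ikzf2 was not tested. In a bulk sample, a region open in few cells and one weakly open in all cells cannot be told apart.

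**Figure D1:**
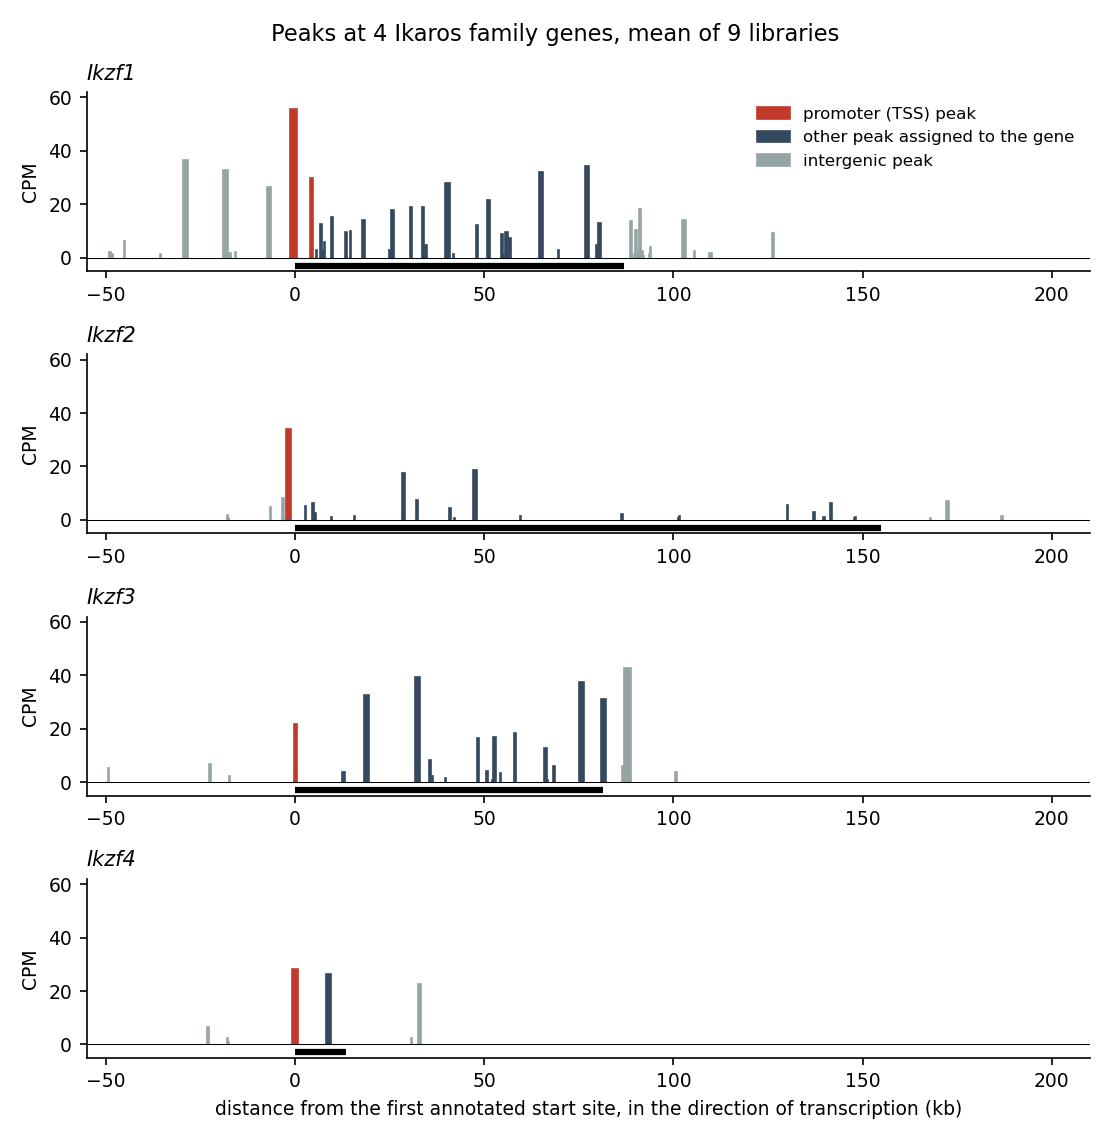
Peaks of Ikzf1, Ikzf2, Ikzf3 and Ikzf4 by distance from the first annotated start in the direction of transcription (kb, horizontal) and mean CPM of 9 libraries (vertical). Bar widths are peak lengths, the black line below each panel is the transcript, and colours mark promoter, other assigned and intergenic peaks; Ikzf1 and Ikzf3 carry tall peaks along the whole gene, while in Ikzf2 only the promoter exceeds 20 CPM.

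The signal was spread differently within the genes. Promoter peaks held 21.5% of the assigned signal of Ikzf1, 27.8% of that of Ikzf2, 8.39% of that of Ikzf3 and 52.0% of that of Ikzf4. Introns held 66.4%, 64.3% and 79.5% of the signal in Ikzf1, Ikzf2 and Ikzf3. Intron 3 alone, as the table numbers it, carried 36 of the 70 assigned peaks, 14 in Ikzf1, 13 in Ikzf2 and 9 in Ikzf3. Of the 10 highest peaks of the family, 5 were counted under Ikzf1, 4 under Ikzf3 and 1 under Ikzf2, and 2 were promoters. Those under Ikzf3 include an intergenic peak whose nearest listed gene is Grb7.

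In Ikzf3 several regions away from the start exceeded its own promoter, which averaged 21.7 CPM. The highest was an intergenic peak beyond the 3′ end of the gene (mm9, chr11:98318515-98320295, 42.7 CPM), which lies 1827 bases from the nearest listed gene, Grb7, and cannot be assigned to Ikzf3 by position. A peak in intron 3 (chr11:98374174-98375489) had 39.3 CPM and one in intron 7 (chr11:98331088-98332335) 37.6 CPM. In Ikzf1 the highest peak other than a promoter was intergenic, 28.9 kb before the first start (chr11:11556383-11557762), with 36.4 CPM. The genotypes overlapped there, with 38.6, 34.7 and 33.0 CPM in Stat6_KO, 39.1, 37.2 and 37.7 CPM in Il21e_KO and 32.4, 38.9 and 35.5 CPM in WT libraries. Stat6_KO differed from WT there by a log2 fold change of -0.00 ± 0.15 (SE), with a 95% interval of -0.33 to 0.32.

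In Ikzf2 the highest peak besides the promoter lay in intron 3 (chr1:69684508-69685574). It had 19.9, 19.4 and 17.7 CPM in Stat6_KO, 12.4, 22.1 and 20.5 CPM in Il21e_KO and 22.6, 14.8 and 17.4 CPM in WT libraries. The lowest value was that of Il21e_KO 1, and all 3 genotypes overlapped. In Ikzf4 the other assigned peak lay in coding exon 6 (chr10:128073588-128074755), with 22.2, 26.5 and 27.5 CPM in Stat6_KO, 32.4, 30.3 and 19.4 CPM in Il21e_KO and 34.3, 25.7 and 18.1 CPM in WT libraries. Its 3 genotypes overlapped as well.

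The promoter peaks were compared between genes per kb of peak, because signal in this table followed peak length closely. Over 14608 TSS peaks the correlation of log2 CPM with log2 length was 0.952 across peaks, which share the same 9 libraries. Per kb, the TSS peaks had a median of 21.6 and a maximum of 40.4 CPM. The upstream Ikzf1 promoter, 1884 bp long, exceeded 96.7% of TSS peaks in CPM and 93.4% per kb. The downstream Ikzf1 promoter, 946 bp long, exceeded 67.8% in CPM and 96.9% per kb.

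**Figure D2:**
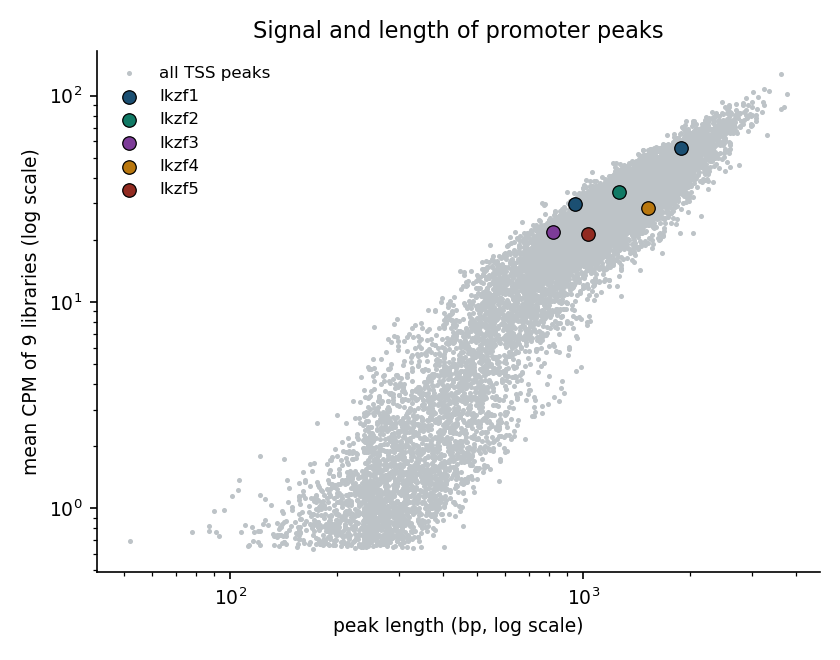
Length (bp, log scale, horizontal) and mean CPM of 9 libraries (log scale, vertical) of the 14608 TSS peaks, in grey, with the 6 promoter peaks of the family in colour. The upstream and downstream Ikzf1 peaks exceed 93.4% and 96.9% of TSS peaks of any length per kb. The Ikzf4 peak lies lower, at 18.6 CPM per kb against a median of 21.6. Peaks of equal length were not compared.

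Per kb, and taking the upstream peak for Ikzf1, the promoters stood in the order Ikzf1 (29.6 ± 2.65 CPM per kb, SD, n = 9 libraries), Ikzf2 (27.1 ± 3.71), Ikzf3 (26.4 ± 6.20), Ikzf5 (20.7 ± 6.24) and Ikzf4 (18.6 ± 4.49). Of the 4 neighbouring pairs, Ikzf3 and Ikzf5 differed: Ikzf3 was higher in 9 of 9 libraries (exact 2-sided paired permutation test, p = 0.00391, the smallest that 9 libraries allow, adjusted p = 0.0156 over the 4 pairs). The other neighbours did not differ beyond their spread. Ikzf1 was above Ikzf2 in 6 of 9 libraries (exact adjusted p = 0.328), Ikzf2 above Ikzf3 in 4 of 9 (0.773) and Ikzf5 above Ikzf4 in 5 of 9 (0.773). No neighbouring pair passed after leaving out Stat6_KO 2, Il21e_KO 1 or Il21e_KO 2. There 8 libraries gave lowest exact adjusted p-values of 0.375, 0.125 and 0.375. In these runs the order changed: Ikzf3 moved above Ikzf2 without Stat6_KO 2 or Il21e_KO 2, and Ikzf4 above Ikzf5 without Il21e_KO 1. Ikzf3 and Ikzf5 were then no longer neighbours and were not compared, so these runs do not bear on their difference. In CPM not divided by length the order was Ikzf1, Ikzf2, Ikzf4, Ikzf3 and Ikzf5. On that scale Ikzf1 was above Ikzf2 in 9 of 9 libraries (exact adjusted p = 0.0156), and Ikzf3 was above Ikzf5 in 3 of 9 (exact adjusted p = 0.645), so which pair differed depended on the division by length.

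No promoter of the family passed the test between genotypes. The upstream Ikzf1 promoter (chr11:11584687-11586571) had 54.0, 57.1 and 48.3 CPM in Stat6_KO, 65.7, 54.8 and 58.8 CPM in Il21e_KO and 52.0, 58.4 and 52.9 CPM in WT libraries. The genotypes overlapped. The log2 fold change was -0.04 ± 0.14 in Stat6_KO and 0.13 ± 0.14 in Il21e_KO against WT, with 95% intervals of -0.33 to 0.26 and -0.16 to 0.42.

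The downstream Ikzf1 promoter (chr11:11589875-11590821) had 28.4, 30.0 and 26.3 CPM in Stat6_KO, 47.6, 29.6 and 21.1 CPM in Il21e_KO and 32.4, 27.2 and 24.5 CPM in WT libraries. Both the highest and the lowest value were Il21e_KO libraries. Per kb it was higher than the upstream one in 6 of 9 libraries.

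The Helios gene Ikzf2 has its promoter peak (chr1:69733485-69734746) 950 bases before the annotated start. It had 33.0, 38.3 and 36.1 CPM in Stat6_KO, 34.3, 42.8 and 28.9 CPM in Il21e_KO and 33.7, 27.2 and 32.9 CPM in WT libraries. Stat6_KO and WT overlapped, with a log2 fold change of 0.19 ± 0.18. The Aiolos gene Ikzf3 (chr11:98406810-98407632) had 18.2, 17.7 and 26.9 CPM in Stat6_KO, 31.4, 15.1 and 23.9 CPM in Il21e_KO and 22.6, 19.5 and 19.99 CPM in WT libraries. Its Il21e_KO libraries enclosed all values of the other genotypes. The Pegasus gene Ikzf5 (chr7:138553430-138554461) had 14.8, 19.4 and 22.6 CPM in Stat6_KO, 34.3, 16.4 and 26.1 CPM in Il21e_KO and 23.9, 21.02 and 13.5 CPM in WT libraries, and all genotypes overlapped.

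The Eos gene Ikzf4 (chr10:128082289-128083818) had 34.1, 33.6 and 31.2 CPM at its promoter in Stat6_KO, 11.4, 27.1 and 31.6 CPM in Il21e_KO and 30.6, 29.6 and 26.4 CPM in WT libraries. All Stat6_KO libraries were above all WT libraries, but by less than the error of the fit (log2 fold change 0.19 ± 0.26, limma adjusted p = 1.00). Against Il21e_KO the log2 fold change was 0.59 ± 0.26 (limma adjusted p = 0.780). Without Il21e_KO 1, whose 11.4 CPM were 12 reads, it was 0.16 ± 0.16. That library also enters the error of Stat6_KO against WT, because all 9 libraries share 1 estimate of spread. Ikzf4 lies on chromosome 10, 971 kb from the Stat6 gene.

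**Figure D3:**
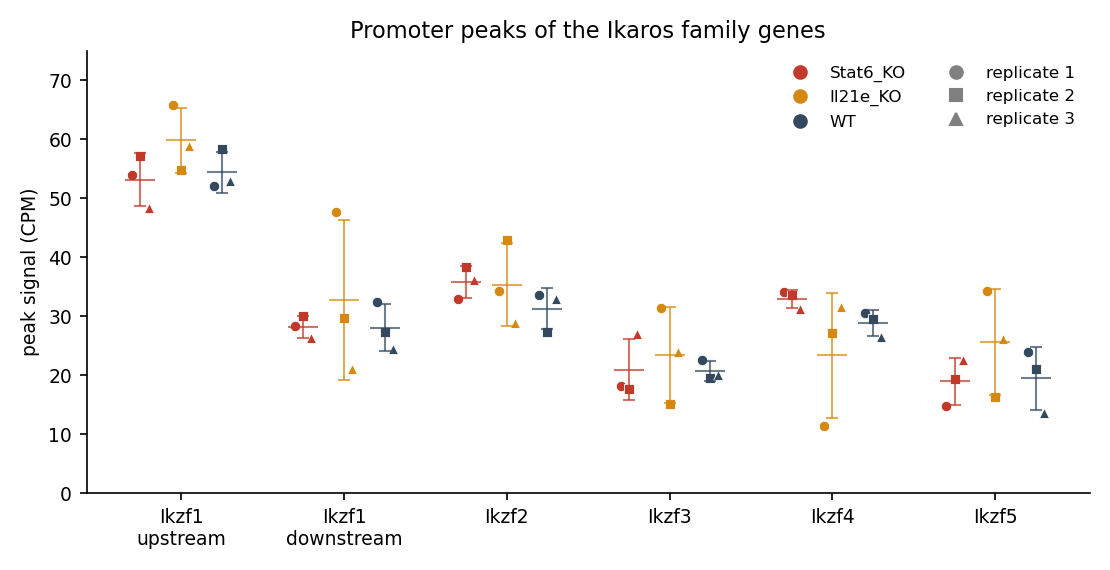
Signal in CPM (vertical) of the 6 promoter peaks in each library, by gene and genotype (Stat6_KO red, Il21e_KO orange, WT dark blue), with the mean and SD of 3 libraries and a marker shape per replicate. The genotypes overlap at every promoter except Stat6_KO above WT at Ikzf4, and Il21e_KO 1 is lowest at Ikzf4, at 11.4 CPM, and highest at both Ikzf1 promoters, Ikzf3 and Ikzf5.

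Summed over its assigned peaks, each gene was tested beside all 14039 genes that passed the filter. In no comparison was a member called at a false discovery rate of 0.05, and neither was any other gene: the share called was 0% in Stat6_KO against WT, 0% in Il21e_KO against WT and 0% in Stat6_KO against Il21e_KO. At an unadjusted p under 0.05 these fits had 429, 363 and 763 of all gene sums.

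Ikzf1 and Ikzf2 were the members whose Stat6_KO sums lay apart from WT. Ikzf1 summed to 376, 394 and 365 CPM in Stat6_KO libraries, 459, 381 and 376 CPM in Il21e_KO and 404, 420 and 408 CPM in WT libraries. Ikzf2 summed to 118, 127 and 114 CPM in Stat6_KO, 88.6, 139 and 113 CPM in Il21e_KO and 143, 134 and 128 CPM in WT libraries. Every Stat6_KO library was below every WT library for both genes. Such a separation occurred in 14.6% of all gene sums tested in this comparison, so it was common. The log2 fold change was -0.12 ± 0.07 for Ikzf1 and -0.17 ± 0.13 for Ikzf2, both with a limma adjusted p of 1.00.

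In Il21e_KO against WT no member separated, where 6.3% of gene sums did, and in Stat6_KO against Il21e_KO none did, where 10.6% of gene sums did. The smallest p there was that of Ikzf2 in Il21e_KO against WT, at a log2 fold change of -0.27 ± 0.13 (limma adjusted p = 1.00), with the library Il21e_KO 1 lowest at 88.6 CPM. It was -0.11 without that library. Ikzf3 varied least over the 9 libraries, with a coefficient of variation of 4.15% against 7.26% for Ikzf1 and 12.8% to 30.1% for the others. The Ikzf1 sum was 459 CPM in Il21e_KO 1 and 365 to 420 CPM elsewhere, and Ikzf5 rested on 21 to 47 reads per library. How far this ranking depends on that library or on counting error was not tested. Ikzf3 averaged 254 ± 6.40 CPM in Stat6_KO, 262 ± 11.9 in Il21e_KO and 260 ± 15.3 CPM in WT libraries (SD, n = 3 each). Its 95% intervals against WT ran from -0.16 to 0.11 in Stat6_KO and from -0.12 to 0.15 in Il21e_KO on the log2 scale. Ikzf4 averaged 58.3 ± 1.93 CPM in Stat6_KO, 50.7 ± 6.76 in Il21e_KO and 54.9 ± 10.2 CPM in WT libraries, and Ikzf5, with its single peak, averaged 18.9 ± 3.95 CPM in Stat6_KO, 25.6 ± 8.97 in Il21e_KO and 19.5 ± 5.33 CPM in WT libraries (SD, n = 3 each).

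**Figure D4:**
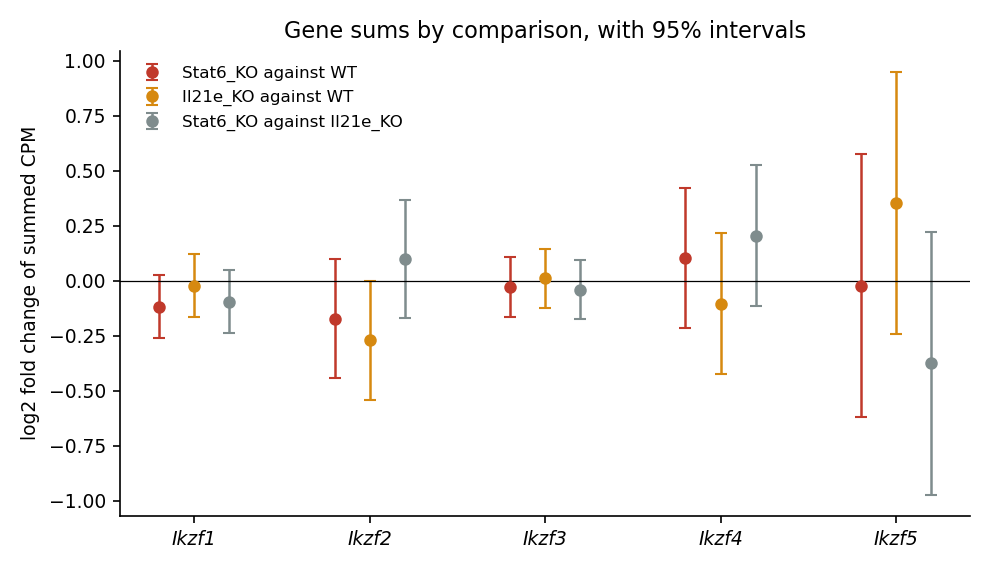
Log2 fold change of the summed CPM of each gene (vertical) with its 95% interval from limma, for Stat6_KO against WT, Il21e_KO against WT and Stat6_KO against Il21e_KO; the first and second share the WT libraries. All intervals reach across 0 except that of Ikzf2 in Il21e_KO against WT, whose upper end lies at 0 and whose adjusted p is 1.00, and they are widest for Ikzf5.

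Of the 112 peaks, 58 had enough reads to be tested: 29 of Ikzf1, 9 of Ikzf2, 15 of Ikzf3, 4 of Ikzf4 and the 1 of Ikzf5. The 54 others had at most 17 reads in any library. No tested peak of the family passed a false discovery rate of 0.05 in limma in any of the 3 comparisons. Over all 48287 peaks tested, the share called was 0.0104% in Stat6_KO against WT, 0% in Il21e_KO against WT and 0.0104% in Stat6_KO against Il21e_KO, so almost no peak of the table passed either. At an unadjusted p under 0.05 the family had 3, 2 and 2 of 58 peaks in these comparisons, and all peaks 1591, 1698 and 2744 of 48287; edgeR gave 3, 2 and 0 family peaks and DESeq2 1, 0 and 0, with none called. Leaving out each library in turn gave 1 to 4 family peaks in Stat6_KO against WT, 0 to 6 in Il21e_KO against WT and 0 to 10 in Stat6_KO against Il21e_KO. The count in Stat6_KO against WT was 1 without Stat6_KO 2 or WT 2. It was 6 in Il21e_KO against WT without Il21e_KO 2 or Il21e_KO 3 and 0 without WT 2. Between the knockouts it was 10 without Il21e_KO 2, 7 without Il21e_KO 3 and 0 without Stat6_KO 3.

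The median log2 fold change of the 58 peaks was -0.02 in Stat6_KO against WT, -0.04 in Il21e_KO against WT and 0.01 in Stat6_KO against Il21e_KO. Over all tested peaks the medians were -0.00, -0.03 and 0.04. In Stat6_KO against WT 8 of 58 peaks (13.8%) had groups that did not overlap, 3 higher and 5 lower, against 13.2% of all tested peaks. In Il21e_KO against WT there were 2 (3.45%), against 7.28%, and in Stat6_KO against Il21e_KO 4 (6.90%), against 11%. The family's shares were near the background or below it.

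**Figure D5:**
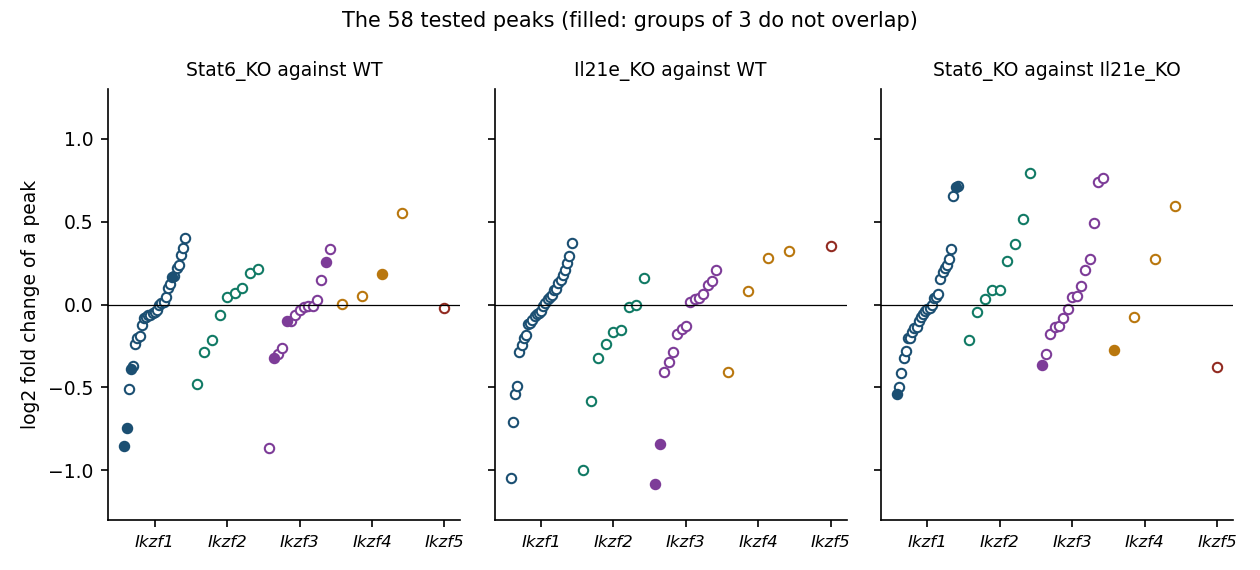
Log2 fold change (vertical) of the 58 tested peaks by gene in 3 comparisons, sorted within each gene; filled points are peaks whose groups of 3 libraries do not overlap. The points lie on both sides of 0 in every gene with more than 4 tested peaks, and 8, 2 and 4 of them are filled.

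In Stat6_KO against WT, the Ikzf1 and Ikzf3 peaks with an unadjusted p under 0.05 were weak intronic ones. In intron 3 of Ikzf1 (chr11:11642608-11643080) the signal was 5.68, 4.12 and 5.50 CPM in Stat6_KO, 9.53, 8.19 and 6.10 CPM in Il21e_KO and 6.73, 10.9 and 10.3 CPM in WT libraries. The Stat6_KO libraries were below all others. The log2 fold change against WT was -0.74 ± 0.30 (limma adjusted p = 1.00). A neighbouring peak in the same intron (chr11:11641556-11642197), chosen after its values were seen, had 5.11, 6.48 and 8.56 CPM in Stat6_KO, 16.2, 3.15 and 7.21 CPM in Il21e_KO and 12.9, 16.3 and 9.67 CPM in WT libraries. Stat6_KO lay below WT there too (-0.85 ± 0.39, limma adjusted p = 1.00), while the Il21e_KO libraries spread over the whole range.

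A peak in intron 6 of Ikzf3 (chr11:98338590-98339202), also chosen after its values were seen, had 5.11, 6.48 and 2.45 CPM in Stat6_KO, 2.86, 5.04 and 6.10 CPM in Il21e_KO and 6.12, 8.56 and 12.9 CPM in WT libraries. Stat6_KO overlapped WT, and Il21e_KO lay just below it. The log2 fold change of Stat6_KO against WT was -0.86 ± 0.40 (limma adjusted p = 1.00). A pair of stronger Ikzf3 peaks had separated groups and small differences. In intron 7 (chr11:98331088-98332335) the signal was 39.8, 38.3 and 42.2 CPM in Stat6_KO, 44.8, 32.1 and 39.9 CPM in Il21e_KO and 36.7, 26.5 and 38.0 CPM in WT libraries. Stat6_KO stood 0.26 ± 0.18 above WT on the log2 scale (limma adjusted p = 1.00).

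In intron 1 of Ikzf3 (chr11:98387783-98389025) the signal was 31.3, 29.4 and 31.8 CPM in Stat6_KO, 28.6, 36.5 and 37.2 CPM in Il21e_KO and 32.4, 32.7 and 34.2 CPM in WT libraries. Stat6_KO stood below WT by a margin smaller than the error (log2 fold change -0.10 ± 0.16). The largest upward difference of Stat6_KO from WT was at an intergenic peak 22.9 kb before the Ikzf4 start and nearest to Suox (chr10:128105707-128106276). It had 8.52, 10.6 and 5.50 CPM in Stat6_KO, 5.72, 6.93 and 6.66 CPM in Il21e_KO and 4.90, 4.67 and 5.80 CPM in WT libraries. The groups overlapped (0.55 ± 0.31, limma adjusted p = 1.00).

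In Il21e_KO against WT the smallest p belonged to a short intergenic peak beyond the 3′ end of Ikzf3 (chr11:98320446-98320790), again nearest to Grb7. It had 5.11, 7.07 and 6.73 CPM in Stat6_KO, 0.953, 5.67 and 4.99 CPM in Il21e_KO and 8.57, 8.56 and 7.09 CPM in WT libraries. Every knockout library of either genotype was below every WT library. For Stat6_KO this rested on 7.07 CPM in Stat6_KO 2 (12 reads) against 7.09 CPM in WT 3 (11 reads). Its log2 fold change against WT was -0.32 ± 0.42, and 13.2% of all tested peaks separated in that comparison. The log2 fold change was -1.08 ± 0.42 in Il21e_KO against WT (limma adjusted p = 1.00), and -0.52 without Il21e_KO 1, whose 0.953 CPM were 1 read. A peak in intron 6 of Ikzf2 (chr1:69590654-69591187), chosen after its values were seen, had 6.82, 7.07 and 3.67 CPM in Stat6_KO, 0.953, 7.56 and 4.99 CPM in Il21e_KO and 7.95, 10.9 and 6.45 CPM in WT libraries. Its low value was again Il21e_KO 1, and the groups overlapped (-0.995 ± 0.47 in Il21e_KO against WT, limma adjusted p = 1.00). Without that library the log2 fold change was -0.37 ± 0.33.

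Upward, the smallest p in Il21e_KO against WT was at an intergenic peak beyond the 3′ end of Ikzf4, nearest to Rps26 (chr10:128049604-128050553). It had 20.5, 23.0 and 20.8 CPM in Stat6_KO, 28.6, 25.2 and 24.4 CPM in Il21e_KO and 20.8, 17.1 and 24.5 CPM in WT libraries. Il21e_KO and WT overlapped at a single WT library (0.32 ± 0.19, limma adjusted p = 1.00). Between the knockouts, the peak with the smallest p lay 90.2 kb past the first Ikzf1 start, beyond the end of the gene (chr11:11675857-11676411). It had 12.5, 11.8 and 12.8 CPM in Stat6_KO, 3.81, 8.82 and 10.5 CPM in Il21e_KO and 11.6, 10.1 and 10.96 CPM in WT libraries. Stat6_KO libraries were above all others, by 0.71 ± 0.29 on the log2 scale against Il21e_KO (limma adjusted p = 0.780) and by 0.33 without Il21e_KO 1, the lowest library.

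In the other direction it was a peak in intron 5 of Ikzf1 (chr11:11665971-11666682), with 13.6, 7.07 and 9.79 CPM in Stat6_KO, 18.1, 10.7 and 14.98 CPM in Il21e_KO and 16.5, 11.7 and 15.5 CPM in WT libraries. The groups overlapped (-0.50 ± 0.26 in Stat6_KO against Il21e_KO, limma adjusted p = 0.780, and -0.34 without Il21e_KO 1).

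The partners, modifiers and known target genes of Ikaros proteins gave no called peak either with all 9 libraries in the fit, against the same backgrounds. Of 17 genes of the NuRD, Sin3 and CtBP corepressors, all had a peak and 16 a tested one, 51 peaks in all, of which 0 were called higher and 0 lower in each comparison. Their median log2 fold changes were -0.04 in Stat6_KO and -0.05 in Il21e_KO against WT and 0.06 in Stat6_KO against Il21e_KO. The smallest p was at the promoter of Sin3a, the scaffold of the Sin3 deacetylase complex, with 19.3, 18.3 and 20.2 CPM in Stat6_KO and 56.2, 24.6 and 26.1 CPM in Il21e_KO libraries (-0.75 ± 0.25, limma adjusted p = 0.780). The libraries of the 2 genotypes were separated, with Il21e_KO 1 highest, and without that library the log2 fold change was -0.38 ± 0.18. Against WT the smallest p were at peaks of Gatad2a, a NuRD subunit, in a 5′ exon for Stat6_KO (0.63 ± 0.32) and in intron 3 for Il21e_KO (0.52 ± 0.24), both with a limma adjusted p of 1.00. The second was 0.27 ± 0.22 without Il21e_KO 1.

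The 5 SWI/SNF remodelling partners had 22 tested peaks with 0 called in each comparison, with medians of 0.07 in Stat6_KO and -0.09 in Il21e_KO against WT and 0.10 in Stat6_KO against Il21e_KO. The smallest p were at Arid1a intron 1 in Stat6_KO against WT (-0.58 ± 0.25), at Smarca4 intron 13 in Il21e_KO against WT (-0.34 ± 0.16) and at a Smarca4 5′ exon in Stat6_KO against Il21e_KO (0.92 ± 0.40). Of 7 genes that degrade or modify Ikaros factors, among them Crbn, the substrate receptor through which lenalidomide removes Ikaros and Aiolos in human cells, 6 had tested peaks, 12 in all, with 0 called. Their medians were -0.20 in Stat6_KO and 0.03 in Il21e_KO against WT and -0.19 in Stat6_KO against Il21e_KO. The smallest p were at Cul4b, a cullin of that ligase, in intron 4 in Stat6_KO against WT (0.82 ± 0.35) and in exon 4 in Il21e_KO against WT (-0.34 ± 0.16), and at the promoter of Csnk2b, a casein kinase 2 subunit, in Stat6_KO against Il21e_KO (-0.49 ± 0.19, and -0.30 ± 0.17 without Il21e_KO 1). None of these passed the adjustment: the lowest adjusted p in each list was 1.00 against WT and 0.780 between the knockouts.

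Of 20 genes known to be bound or controlled by Ikaros factors in lymphocytes, 15 had tested peaks, 37 in all, with 0 called and medians of -0.15 in Stat6_KO and -0.15 in Il21e_KO against WT and 0.03 in Stat6_KO against Il21e_KO. The smallest p of any listed gene was at intron 1 of Il7r, the interleukin-7 receptor chain that naive T cells need to survive (chr15:9457665-9458734). It had 21.03, 18.3 and 14.7 CPM in Stat6_KO, 43.8, 23.3 and 19.97 CPM in Il21e_KO and 41.0, 34.3 and 31.0 CPM in WT libraries. All Stat6_KO libraries were below all WT libraries, and 2 of the 3 Il21e_KO libraries were as well. The log2 fold change was -0.94 ± 0.25 in Stat6_KO against WT (limma adjusted p = 1.00) and -0.59 ± 0.25 in Stat6_KO against Il21e_KO (limma adjusted p = 0.780). Without Il21e_KO 1, the highest of the Il21e_KO libraries, the second was -0.26 ± 0.19. The first kept its size and was called once that library no longer entered the shared estimate of spread. The limma adjusted p was 0.00256 without Il21e_KO 1 and 0.00375 in a fit of the 2 groups only. Those runs called 61 and 38 of all 48287 tested peaks. Il21e_KO 1, WT 1 and WT 2, the libraries with the most peaks without reads, had the highest values there, 43.8, 41.0 and 34.3 CPM. WT 3 followed at 31.0 CPM. Whether that trait of the libraries bears on the Il7r difference was not tested. The Il7r peak was the single peak of these lists called under any alternative run. In Il21e_KO against WT the smallest p of the list was at intron 2 of Dtx1, a Notch pathway regulator (-0.31 ± 0.18, limma adjusted p = 1.00, and -0.48 ± 0.16 without Il21e_KO 1).

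The genes whose promoter signal ran most like that of each member over the 9 libraries were Lnpk, Zfp446 and Zdhhc5 for Ikzf1 (Pearson r = 0.99, 0.98 and 0.98) and Ccdc83, A930016O22Rik and Kbtbd6 for Ikzf2 (0.92, 0.88 and 0.86). They were Gpr65, Rufy1 and D130020L05Rik for Ikzf3 (0.95, 0.93 and 0.93), Vegfb, Slc9a7 and Rbpms for Ikzf4 (0.98, 0.98 and 0.97) and Hexim1, Stk38 and Utp14a for Ikzf5 (0.98, 0.97 and 0.96). These were the highest of 10783 genes, the libraries are shared by all, and the values are descriptions. The 99th percentile of r was 0.93 for Ikzf1, 0.62 for Ikzf2, 0.85 for Ikzf3, 0.92 for Ikzf4 and 0.89 for Ikzf5. Without Il21e_KO 1 the r of the named genes was 0.69, 0.74 and 0.51 for Ikzf4 and 0.87 to 0.97 for the other members. The named genes were picked with the remaining libraries included, so these values are not a separate check.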

How the data were processed

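ATAC-seq was measured in 9 libraries of naive CD4+ T cells, 3 per genotype, tagmented for 30 min at 37 °C and sequenced with paired 75-bp reads, per the labels' protocols. The authors deposited 1 table of 115727 peaks on mm9 with CPM values; MACS2 2.0, HOMER and Bowtie 1.3.0 are listed in the submitters' processing notes. How peaks were merged or filtered is not given in the sources used here. Each deposited CPM column sums to 1000000 over the listed peaks, and 100% of values were whole multiples of a library's step, taken as 1 read, within 0.01 read. A count of 0 allows up to 3 reads, 1.66 to 2.86 CPM, for counting error only; reads copied by PCR are not independent. Gene symbols were taken from the column that holds them, since its header names something else.

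Peaks were kept by filterByExpr (edgeR 4.0.16; minimum count 10, minimum total 15) on the recovered reads, which left 48287 peaks. Differences were tested in R 4.3.3 with limma 3.58.1 (trend option) on log2(CPM + 1), all 9 libraries in 1 fit, with Benjamini-Hochberg adjustment over all peaks at a false discovery rate of 0.05. Fold changes on this scale understate the change of low peaks. CPM summed per gene symbol were tested the same way over 14039 genes. Promoter levels were compared by an exact 2-sided paired permutation test over libraries. Errors of fold changes are standard errors of that fit; those of group means are SDs. Start and end positions are as in the table.

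Library pairs without Il21e_KO 1 gave a chi-square per degree of freedom of 0.712 to 1.12, both within and between genotypes. Most pairs were under 1, closer than independent counting gives, and how the values came to be so is not given in the sources used here. Agreement therefore did not mark duplicates, all libraries were counted, and p-values may measure technical spread only. The procedure was run on simulated counts that had a common spread and no library like Il21e_KO 1. That run does not show how the procedure behaves with such a library. The peaks described are the promoter peaks of all 5 genes, the highest other peak of each, the smallest p per comparison and direction, and peaks of at least 10 CPM whose groups were separated in Stat6_KO against WT; others are named as chosen after their values were seen. The family, the gene lists and these rules were chosen with earlier results of these data known. Alternatives were DESeq2 1.42.0, edgeR, limma-voom, other pseudocounts, scalings, filters and windows, 2 groups only, a replicate block and leaving out each library. Protein sequences were not used here. Not every marker gene of the lists is reported here.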

Additional observations from a re-analysis of the deposited data

How the results depend on the processing

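No peak and no gene sum of the family was called in any of the 3 comparisons under any alternative run. The lowest adjusted p of a family peak was 0.230, in Stat6_KO against WT with 2 groups only. The whole table was less stable: Stat6_KO against WT called 5 peaks, but 61 without Il21e_KO 1, 38 with 2 groups only, 9 without WT 1 and 3 without WT 2 or WT 3, and Il21e_KO against WT called 0, but 2 without Il21e_KO 1 and 1 with no filter. Stat6_KO against Il21e_KO called 5 peaks, but 17 without Il21e_KO 1, 16 with no filter, 13 after cyclic loess, 12 with edgeR 9 without WT 1 and 8 with a pseudocount of 5 CPM; the cause was not tested. The replicate block called 0 family peaks in each comparison, with a lowest adjusted p of 1.00 against WT and 0.773 between the knockouts, and 0 gene sums; same-numbered libraries deviated together with correlations of -0.19 to 0.25, so the numbers were not taken to pair them. The Il7r intron 1 peak, not called in Stat6_KO against WT with all libraries, was called there without Il21e_KO 1 and with 2 groups only (adjusted p = 0.00256 and 0.00375). Of the neighbouring promoter pairs, 1 passed, and 0 to 1 passed when a library was left out. Where 0 passed, Ikzf3 and Ikzf5 were no longer neighbours and were not compared. In CPM not divided by length 1 passed too, but it was Ikzf1 and Ikzf2, and Ikzf3 and Ikzf5 gave an exact adjusted p = 0.645.

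Small differences changed sign. In Stat6_KO against WT the Ikzf3 promoter moved to 0.0015 with TMM scaling, 0.0356 after cyclic loess, 0.0143 with edgeR and 0.0173 with DESeq2. After cyclic loess the upstream Ikzf1 promoter moved to 0.0813 and the Ikzf5 promoter to 0.0179. In Il21e_KO against WT, intergenic peaks within 50 kb moved the sums of Ikzf3 to -0.0233 and Ikzf4 to 0.0337.
Leaving out each library in turn gave, in Stat6_KO against WT, -0.0882 to 0.0302 at the upstream and -0.0734 to 0.122 at the downstream Ikzf1 promoter, -0.195 to 0.0957 at the Ikzf3 promoter, -0.250 to 0.138 for Ikzf5 (promoter and sum), -0.0763 to 0.00706 for the Ikzf3 sum and -0.0374 to 0.229 for the Ikzf4 sum. In Il21e_KO against WT it gave -0.151 to 0.418 at the downstream Ikzf1 promoter, -0.113 to 0.391 at the Ikzf3 and -0.674 to 0.0219 at the Ikzf4 promoter, and -0.115 to 0.0283, -0.0362 to 0.0471 and -0.243 to 0.0238 for the sums of Ikzf1, Ikzf3 and Ikzf4. The Ikzf2 sum ran from -0.0661 to 0.257 in Stat6_KO against Il21e_KO. All these are log2 fold changes that were not called.
Depth limits the 54 peaks not tested; median SE of the tested family peaks was 0.24.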

Other observations

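Among the family peaks set aside for low counts, 1 intergenic peak 17.1 kb before the first Ikzf1 start (mm9, chr11:11568554-11569049) was singled out after its values were seen. It had 8, 7 and 6 reads in Stat6_KO, 0, 1 and 1 reads in Il21e_KO and 1, 1 and 3 reads in WT libraries, and every Stat6_KO library was above all others. In a fit of all 115727 peaks with no filter, limma gave a log2 fold change of 1.33 ± 0.46 in Stat6_KO against WT (unadjusted p = 0.00731, adjusted p = 0.693) and 1.90 ± 0.46 in Stat6_KO against Il21e_KO (adjusted p = 0.627). All its values outside Stat6_KO lie at or under 3 reads. Other set-aside peaks, also chosen after their values were seen, were lower or higher. One lay 48.3 kb before the first Ikzf1 start and nearest to 4930512M02Rik (chr11:11537496-11537808). It had 1, 1 and 0 reads in Stat6_KO, 1, 1 and 2 in Il21e_KO and 6, 2 and 4 reads in WT libraries (-1.37 ± 0.46 in Stat6_KO against WT, limma adjusted p = 0.684). One in intron 1 of Ikzf3 (chr11:98394155-98394774) had 7, 7 and 7 reads in Stat6_KO, 5, 8 and 11 in Il21e_KO and 2, 1 and 5 reads in WT libraries (1.296 ± 0.41 in Il21e_KO against WT, limma adjusted p = 0.805). Another near Ikzf1 (chr11:11679808-11680143) had 9, 8 and 6 reads in Stat6_KO, 7, 10 and 7 in Il21e_KO and 2, 6 and 0 reads in WT libraries (1.48 ± 0.48 in Il21e_KO against WT, limma adjusted p = 0.805).

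Of the reads in listed peaks, the share in the 112 family peaks was 0.114% to 0.118% in Stat6_KO, 0.117% to 0.118% in Il21e_KO and 0.119% to 0.121% in WT libraries. Every WT library was above every knockout library. How often other sets of peaks separate this way was not counted. No test is given for this sum over chosen genes.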
